A study of Homo sapiens with 12 samples.

Results

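The EGF receptor family and its ligands were followed at the mRNA level in DU145 prostate cancer cells that lacked or re-expressed the α2 integrin subunit. The genes were chosen by name as a family, with earlier results of these data known. They were 3 receptor genes (EGFR, ERBB2 and ERBB3) and 6 ligand genes (AREG, EREG, TGFA, HBEGF, BTC and EPGN), or 9 of the 26485 genes in the deposited tables. Of these, 8 passed the filter on low counts and were tested, and EPGN, with 1 to 8 reads per sample, did not pass.

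DU145 is an established human prostate carcinoma line. The 12 samples were bulk RNA from spheroids seeded with 8000 cells each and kept for 72 h in serum-free medium, with 4 samples per line, and the comparisons ask how the α2 subunit of the collagen receptor α2β1 bears on these cells. All 3 lines carried a CRISPR knockout of ITGA2, the gene of α2. DU145KO was the knockout itself, a GFP-selected population from which α2 positive cells had been sorted out. DU145KO+α2 was the same line stably transfected with α2 cDNA in the pawneo2 expression vector, and DU145KO+vector carried that vector without insert. The transfected lines were kept in geneticin, so DU145KO differs from them by the vector and the selection as well. Parental DU145 was not among the samples, the cDNA was driven by the vector and not by the ITGA2 promoter, and the number of clones behind each stable line is not given in the sources used here. The methods of the study describe the samples as independent biological replicates, and the labels do not say what separates them, so p-values measure the spread between these samples.

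The ErbB receptors are tyrosine kinases of the cell surface that signal as pairs. EGFR binds AREG, EREG, TGFA, HBEGF, BTC and EPGN. ERBB2 has no known ligand of its own and serves as a partner, and ERBB3 binds neuregulins and has little kinase activity, passing its signal on through PI3 kinase. The ligands are made as membrane-anchored precursors and released by ADAM proteases, and in carcinoma cells they often act on the cell that made them.

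Totals per sample ran from 13948734 to 19988111 counted reads, so that 3 reads, taken as the detection floor, correspond to 0.150 to 0.215 CPM (counts scaled to library size). ITGA2 was checked first. It stood at 301, 328, 332 and 259 CPM in the 4 samples of DU145KO+α2, against 21.2, 20.2, 25.8 and 15.7 CPM in DU145KO and 18.8, 18.2, 20.2 and 13.0 CPM in DU145KO+vector. Every DU145KO+α2 sample was far above every α2 negative sample, by 17.3-fold over DU145KO+vector and 14.7-fold over DU145KO. Between the α2 negative lines the log2 difference was −0.23, with an edgeR adjusted p of 0.534, or 0.0402 when blocked by replicate number. The reads left in the α2 negative lines do not show whether protein was made. The epithelial keratins KRT8, KRT18 and KRT19, with EPCAM and CDH1, were present in every sample, whereas the prostate secretory genes KLK2 and KLK3 had no read. Leukocyte PTPRC and CD3E had at most 1 read per sample.

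Of the ligand genes, 4 lie side by side on chromosome 4 (GRCh38), within 486.1 kb and with no other gene of the tables between them. In order they are EPGN (74308470 to 74316789, plus strand), EREG (74365145 to 74388749, plus strand), AREG (74445136 to 74455005, plus strand) and BTC (74744759 to 74794523, minus strand). The 250 bases before their RefSeq start sites (GRCh38.p14) are shown because these neighbours include the most and the least abundant of the ligand mRNAs. The windows are chr4:74308220-74308469 (plus strand) for EPGN, chr4:74364895-74365144 (plus strand) for EREG, chr4:74444886-74445135 (plus strand) for AREG and chr4:74794524-74794773 (minus strand) for BTC. Capitals mark TATAAA and the cyclic AMP response element TGACGTCA, each searched on both strands.
EPGN: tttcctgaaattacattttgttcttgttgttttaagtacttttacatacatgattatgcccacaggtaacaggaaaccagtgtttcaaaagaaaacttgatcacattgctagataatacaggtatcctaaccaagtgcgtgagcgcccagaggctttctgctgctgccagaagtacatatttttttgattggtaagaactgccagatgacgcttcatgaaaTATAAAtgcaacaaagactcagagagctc
EREG: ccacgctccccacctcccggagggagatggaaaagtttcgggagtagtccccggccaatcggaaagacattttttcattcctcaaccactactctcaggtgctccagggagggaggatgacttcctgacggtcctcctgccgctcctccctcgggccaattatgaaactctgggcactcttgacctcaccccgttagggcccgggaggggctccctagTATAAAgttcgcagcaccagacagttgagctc
AREG: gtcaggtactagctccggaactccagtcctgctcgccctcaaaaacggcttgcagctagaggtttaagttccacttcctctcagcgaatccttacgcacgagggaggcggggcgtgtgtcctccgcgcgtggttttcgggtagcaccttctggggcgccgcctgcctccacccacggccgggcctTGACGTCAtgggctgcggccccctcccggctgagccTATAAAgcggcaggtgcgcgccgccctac
BTC: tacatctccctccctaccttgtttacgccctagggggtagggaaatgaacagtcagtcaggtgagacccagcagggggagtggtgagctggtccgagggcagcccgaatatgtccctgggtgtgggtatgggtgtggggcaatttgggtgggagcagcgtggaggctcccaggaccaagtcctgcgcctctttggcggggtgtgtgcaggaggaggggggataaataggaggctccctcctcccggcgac

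TATAAA lay in the windows of EPGN, EREG and AREG, starting 29, 32 and 29 bases before the start site. It was found in 10.7% of all 35116 start site windows of the same length. TGACGTCA was found 65 bases before the AREG start site and in 1.65% of all windows. The AP-1 motif TGANTCA, in 6.57% of all windows, was in none of the 4 sequences, and BTC held none of the 3 motifs. RefSeq windows were given for 8 of the 9 genes, all but ERBB3. A match describes the letters in the window and not a bound site. The other genes lie on chromosome 2 (TGFA, 70447284 to 70554193, minus strand), chromosome 5 (HBEGF, 140332843 to 140346603, minus strand), chromosome 7 (EGFR, 55019017 to 55211628, plus strand), chromosome 12 (ERBB3, 56076799 to 56103505, plus strand) and chromosome 17 (ERBB2, 39687914 to 39730426, plus strand).

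Levels per length differed widely between the genes. As mean RPKM (reads scaled to gene length and library size) over the 12 samples, AREG, which encodes amphiregulin, was highest at 105.6. ERBB2 followed at 45.0, EREG (epiregulin) at 30.8 and EGFR at 21.7. ERBB3 was at 9.90, TGFA at 6.34, BTC (betacellulin) at 6.12 and HBEGF at 2.70, and EPGN (epigen) was at 0.0587. AREG stood apart, its lowest sample of 84.9 RPKM lying above the highest ERBB2 sample of 59.1 RPKM. Between neighbours in this order the samples were apart within each of the 3 lines, with 3 exceptions. ERBB2 and EREG overlapped in DU145KO+α2 and were apart in the other lines. EREG and EGFR overlapped in both α2 negative lines and were apart in DU145KO+α2, and so did TGFA and BTC, with TGFA the lower of the pair in DU145KO+α2. HBEGF, at 1.81 to 3.76 RPKM, lay below every sample of BTC, at 4.97 to 6.94 RPKM.

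**Figure D1:**
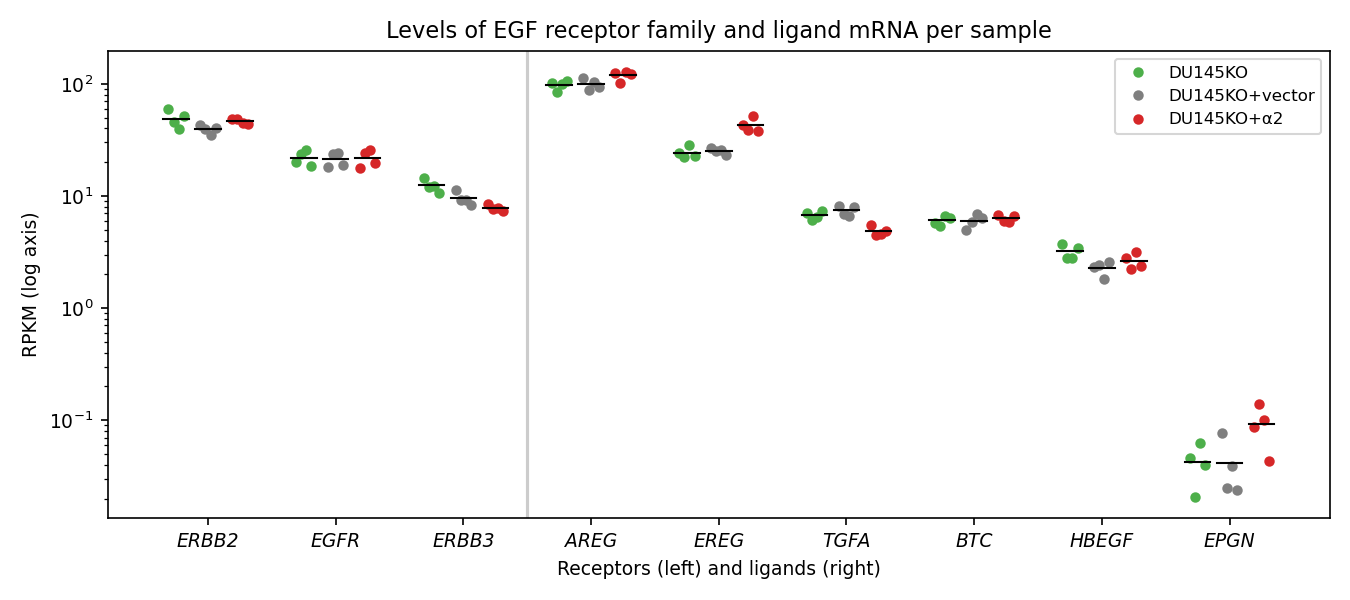
RPKM of each gene in each of the 12 samples on a log axis, with receptors left of the line and ligands right of it, points for samples and bars for the mean of 4. AREG was highest in every sample, EREG was raised in the 4 samples of DU145KO+α2, and EPGN lay below 0.15 RPKM throughout.

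Across the family, in the fit without a replicate block, the ligand EREG rose and the ligand TGFA fell in DU145KO+α2 compared to each α2 negative line. ERBB3 was lower in DU145KO+α2 than in DU145KO, and also, at the edge of the threshold, in DU145KO+vector than in DU145KO. Compared to DU145KO+vector, 2 of the 8 tested genes changed (1 higher, 1 lower), where changed means an adjusted p below 0.05 by edgeR's quasi-likelihood test. Over all 14732 genes tested, 11.9% changed in that comparison (5.96% higher, 5.95% lower). Compared to DU145KO, 3 of 8 changed (1 higher, 2 lower), against 8.17% of all genes (3.09% higher, 5.08% lower). Between DU145KO+vector and DU145KO 1 of 8 changed, to a lower level, against 2.34% of all genes (0.496% higher, 1.84% lower). The samples of the lines compared did not overlap for 3, 3 and 1 of the 8 genes, and for 17.2%, 12.9% and 8.76% of all genes. The largest fold among them was 1.74, and none of the 8 changed by more than 2-fold, a size reached by 2.21%, 2.10% and 0.835% of all genes in the 3 comparisons. The 3 comparisons share samples, since each line enters 2 of them. With the replicate number as a block the counts were 5, 4 and 3 of 8, and those of all genes were 26.5%, 22.3% and 13.4%. In that fit ERBB3 was lower and AREG higher in DU145KO+α2 compared to each α2 negative line.

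EREG was at 198, 178, 239 and 179 CPM in DU145KO+α2. It was at 124, 115, 121 and 109 CPM in DU145KO+vector and at 112, 104, 133 and 106 CPM in DU145KO. All 4 samples with α2 were above all 8 without it, and the α2 negative lines overlapped. The difference was 0.76 ± 0.10 on the log2 scale (SE, 1.69-fold, edgeR adjusted p = 0.000168) from DU145KO+vector and 0.80 ± 0.10 (1.74-fold, adjusted p = 0.000147) from DU145KO. Between the α2 negative lines it was 0.04 (95% interval −0.17 to 0.25, adjusted p = 0.898). As these are bulk samples, more cells with a transcript and more of it per cell cannot be told apart, here and for every gene that follows.

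AREG, the neighbour of EREG and like it a ligand of EGFR, was at 158, 130.3, 164 and 158 CPM in DU145KO+α2. It was at 144, 112, 133 and 121 CPM in DU145KO+vector and at 128, 109.7, 129 and 136 CPM in DU145KO. In each line replicate 2 was the lowest sample, and 3 of the 4 samples with α2 were above all 8 without it, while replicate 2 was not. Compared to DU145KO+vector the log2 difference was 0.26 ± 0.09 (SE) with an edgeR adjusted p of 0.0917, and compared to DU145KO it was 0.28 ± 0.09 with an adjusted p of 0.0833. Blocked by replicate number, the same differences had adjusted p-values of 0.00111 and 0.000679. Without replicate 2 of DU145KO+α2 they were 0.0328 and 0.0306, and without replicate 1 of DU145KO+vector the first was 0.0419. The call for AREG thus rests on how the replicate number is treated and on single samples.

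Of the other neighbours on chromosome 4, BTC did not pass the test and EPGN was not tested. BTC was between 7.85 and 8.82 CPM in DU145KO+α2, between 6.54 and 9.26 CPM in DU145KO+vector and between 7.21 and 8.97 CPM in DU145KO. Its log2 difference between DU145KO+α2 and DU145KO+vector was 0.06 (95% interval −0.22 to 0.33, edgeR adjusted p = 0.839). EPGN had 4, 8, 5 and 2 reads in DU145KO+α2, 4, 1, 2 and 1 in DU145KO+vector and 2, 1, 3 and 2 in DU145KO. With most samples at or near the floor of 3 reads, no fold is given, and a difference was not detectable at this depth. The 38 other tested genes within 5 Mb of EREG had a median log2 difference of 0.01 between DU145KO+α2 and DU145KO+vector. Of these, 5 were higher and 2 lower, beside 5.96% and 5.95% of all genes.

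TGFA, which encodes the EGFR ligand TGF-α, was at 25.8, 21.3, 22.2 and 23.2 CPM in DU145KO+α2. It was at 38.4, 33.0, 32.0 and 38.6 CPM in DU145KO+vector and at 33.4, 29.1, 31.5 and 35.2 CPM in DU145KO. All 4 samples with α2 were below all 8 without it. The log2 difference was −0.62 ± 0.09 (SE, edgeR adjusted p = 0.000459) from DU145KO+vector and −0.48 ± 0.09 (adjusted p = 0.00375) from DU145KO. Between the α2 negative lines it was 0.14 ± 0.09 (adjusted p = 0.548).

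HBEGF, the heparin-binding ligand of EGFR and ERBB4, was at 6.52, 5.20, 7.50 and 5.67 CPM in DU145KO+α2. It was at 5.43, 5.67, 4.31 and 6.06 CPM in DU145KO+vector and at 8.87, 6.72, 6.70 and 8.14 CPM in DU145KO. DU145KO+α2 overlapped with both other lines, and all 4 DU145KO+vector samples were below all 4 DU145KO samples. The log2 difference between these lines was −0.50 ± 0.16 (SE, edgeR adjusted p = 0.115), and blocked by replicate number it was −0.51 with an adjusted p of 0.0216. The 91 other tested genes within 5 Mb of HBEGF had a median log2 difference of −0.17 in the same comparison and −0.15 between DU145KO+α2 and DU145KO, and their part in the HBEGF value was not tested. Between DU145KO+α2 and DU145KO+vector, HBEGF differed by 0.21 (95% interval −0.12 to 0.55, adjusted p = 0.453).

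**Figure D2:**
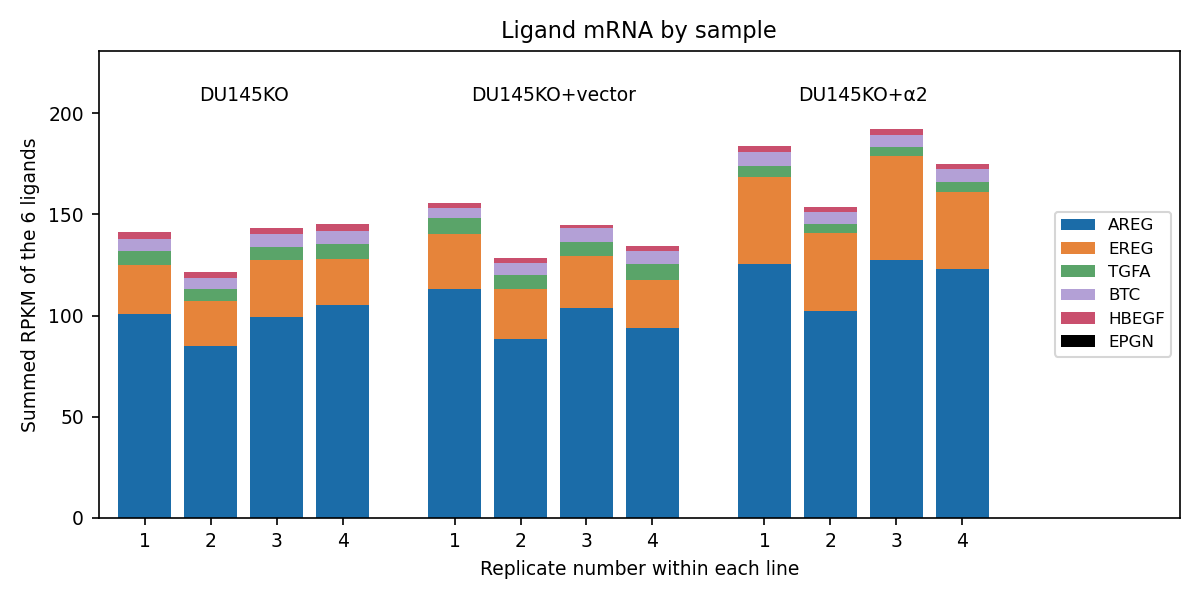
RPKM of the 6 ligand mRNAs stacked for each of the 12 samples. AREG and EREG together made up most of every bar, and the EREG part was larger in the 4 samples of DU145KO+α2.

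Summed over the 6 ligands, the RPKM was 176.2 ± 16.6 (SD, n = 4) in DU145KO+α2, 140.8 ± 12 in DU145KO+vector and 137.8 ± 11.0 in DU145KO, as the plot of stacked ligands shows by sample. AREG and EREG together made up 92.1% ± 0.53, 88.7% ± 1.19 and 88.4% ± 0.30 of that sum. The EREG share was 24.3% ± 2.05 with α2, against 18.0% ± 0.98 and 17.7% ± 1.74 without it. EREG stood at 0.359 ± 0.039 of the AREG level in DU145KO+α2, at 0.254 ± 0.019 in DU145KO+vector and at 0.251 ± 0.030 in DU145KO. This ratio was examined after the values had been seen. On the log2 scale it was higher with α2 by 0.49 and 0.52, in all 4 samples each time (two-sided exact permutation test, p = 0.0286 for each, the smallest that 4 against 4 can give). Between the α2 negative lines it differed by 0.03 (exact permutation p = 0.857).

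Among the receptors, ERBB3 was lowest in DU145KO+α2, with 52.0, 47.1, 48.9 and 45.8 CPM. It was at 69.7, 56.4, 57.9 and 51.4 CPM in DU145KO+vector and at 90.0, 76.0, 77.0 and 67.0 CPM in DU145KO. DU145KO+vector lay between the other lines, overlapped each of them by its edge samples, and had the same order of lines at every replicate number. ERBB3 was lower in DU145KO+α2 than in DU145KO by a log2 difference of −0.68 ± 0.10 (SE, edgeR adjusted p = 0.000480). It was lower in DU145KO+vector than in DU145KO by −0.40 ± 0.10 (adjusted p = 0.0485). Blocked by replicate number the same difference had an adjusted p of 6.2e-05, and DU145KO+vector was the lower at each of the 4 numbers. Without the block the call is at the edge of the threshold. It was lost in 10 of the 12 fits that left out 1 sample, where the adjusted p ran up to 0.165, and held without replicate 4 of DU145KO (0.0198) or replicate 1 of DU145KO+vector (0.0133). Compared to DU145KO+vector, the log2 difference in DU145KO+α2 was −0.28 ± 0.10 (adjusted p = 0.0842), and blocked by replicate number it was −0.27 at an adjusted p of 0.00108.

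Of 5 epithelial markers 3 were lower in DU145KO+α2 than in DU145KO (EPCAM, CDH1 and KRT18), 1 (CDH1) was lower in DU145KO+α2 when set against DU145KO+vector, and 1 (EPCAM) in DU145KO+vector when set against DU145KO. Over all genes, 5.08%, 5.95% and 1.84% were lower in these 3 comparisons. With the block the counts were 4, 3 and 1 of 5, all lower. The blocked shares of all genes, in either direction, were 22.3%, 26.5% and 13.4%. Between DU145KO+α2 and DU145KO+vector the block added KRT8 (adjusted p = 0.0354) and KRT18 (adjusted p = 0.00597) to CDH1. EPCAM and CDH1 encode cell adhesion molecules. EPCAM was between 57.3 and 88.4 CPM in DU145KO+α2, between 82.2 and 93.7 CPM in DU145KO+vector and between 139.7 and 186 CPM in DU145KO. Compared to DU145KO, its log2 difference was −1.14 in DU145KO+α2 (edgeR adjusted p = 1.86e-05) and −0.83 in DU145KO+vector (adjusted p = 0.000930). CDH1, which encodes E-cadherin, was lower in DU145KO+α2 than in DU145KO by −1.13 (adjusted p = 0.000540) and than in DU145KO+vector by −0.70 (adjusted p = 0.00981). The summed level of the 5 markers was 860 to 1150 CPM in DU145KO+α2, 1140 to 1390 CPM in DU145KO+vector and 1210 to 1580 CPM in DU145KO. The part of these genes in the ERBB3 values was not tested.

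ERBB2 was at 263, 266, 248 and 243 CPM in DU145KO+α2, at 236, 217, 195 and 225 CPM in DU145KO+vector and at 325, 253, 220.4 and 285 CPM in DU145KO. The samples of DU145KO+α2 were all above those of DU145KO+vector, and DU145KO overlapped with both. The log2 difference between DU145KO+α2 and DU145KO+vector was 0.22 ± 0.10 (SE, edgeR adjusted p = 0.182), and that between DU145KO+vector and DU145KO was −0.31 ± 0.10 (adjusted p = 0.137). Blocked by replicate number these became 0.23 (adjusted p = 0.0124) and −0.30 (adjusted p = 0.00413), and without replicate 3 of DU145KO the second had an adjusted p of 0.0375. Between DU145KO+α2 and DU145KO the log2 difference was −0.09 (95% interval −0.30 to 0.13, adjusted p = 0.698). Genes on the opposite strand, MIEN1 and PGAP3, share 6.93% of the exon bases of ERBB2, and whether strand was used in counting is not given in the sources used here.

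EGFR differed between samples of a line more than between lines. It was at 115, 158, 172 and 131 CPM in DU145KO+α2, at 119, 156, 158 and 124 CPM in DU145KO+vector and at 132, 156, 171 and 121 CPM in DU145KO. Replicates 2 and 3 were above replicates 1 and 4 in every line. The replicate number, tested as a term beside the line after this had been seen, had an edgeR adjusted p of 2.0e-05 for EGFR, and 35.7% of all genes tested passed the same test. Compared to DU145KO+vector, the log2 difference in DU145KO+α2 was 0.05 (95% interval −0.25 to 0.35, adjusted p = 0.882). Blocked by replicate number it was 0.04 (95% interval −0.07 to 0.15, adjusted p = 0.581). Among the other genes, ERBB2, ERBB3, AREG, EREG and TGFA also passed the test of the replicate number, with adjusted p-values from 0.00240 to 0.0372, and HBEGF (0.578) and BTC (0.410) did not. What the replicate numbers stand for is not given in the sources used here.

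**Figure D3:**
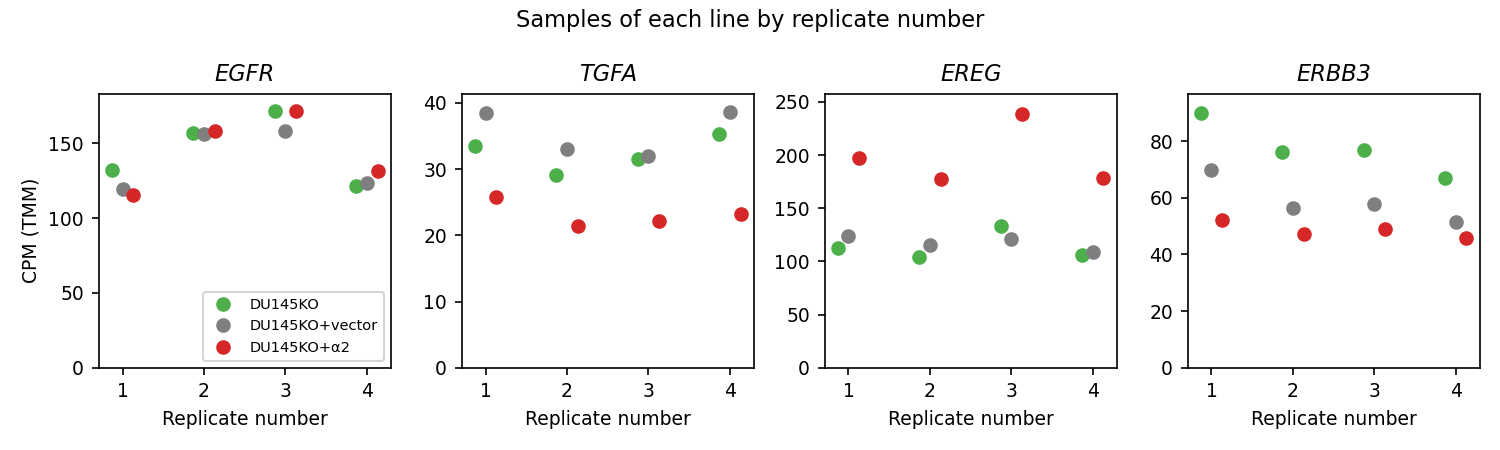
CPM of EGFR, TGFA, EREG and ERBB3 in each sample against its replicate number, with 1 colour per line. EGFR was high at numbers 2 and 3 in all 3 lines, whereas EREG was higher and TGFA and ERBB3 were lower in DU145KO+α2 at every number.

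Summed over the 3 receptors, the RPKM was 76.1 ± 4.1 (SD, n = 4) in DU145KO+α2, 70.3 ± 2.7 in DU145KO+vector and 83.1 ± 7.3 in DU145KO. ERBB2 made up 61.0% ± 3.2, 56.4% ± 4.1 and 58.5% ± 6.1 of it, and ERBB3 10.3% ± 0.80, 13.5% ± 1.5 and 14.9% ± 1.1. The ERBB3 share was below that of every α2 negative sample in each sample of DU145KO+α2.

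**Figure D4:**
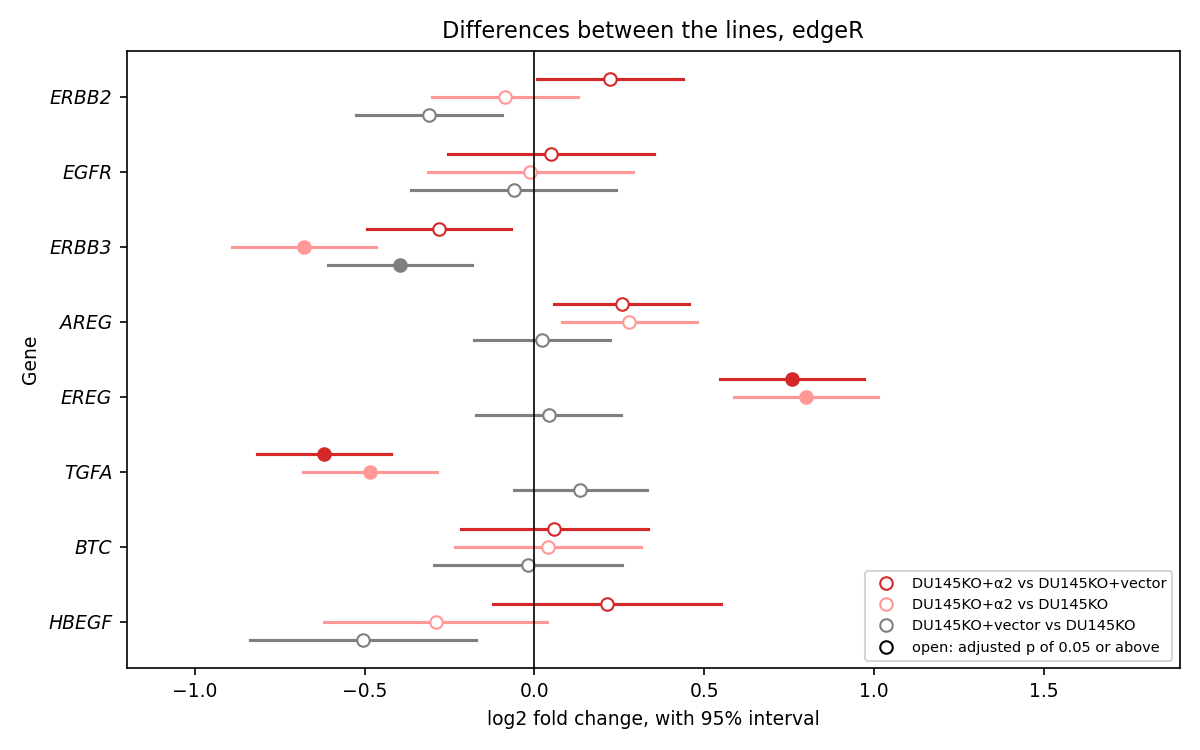
Fitted log2 fold change of the 8 tested genes in the 3 comparisons between lines (edgeR, without the replicate block), with 95% intervals. Filled points have an adjusted p below 0.05. EREG and TGFA were filled in both comparisons with α2, and ERBB3 was filled in both comparisons with DU145KO.

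The genes around the receptors were counted on 5 lists of 78 genes, of which 75 were tested. Compared to DU145KO+vector, 11 of the 75 changed (9 higher, 2 lower), beside the 11.9% of all genes given above. Compared to DU145KO 5 changed (3 higher, 2 lower), or 6.67% beside 8.17% of all genes. Between the α2 negative lines 1 did, to a lower level, or 1.33% beside 2.34% of all genes. With the replicate number as a block these counts were 25, 20 and 12, beside the blocked shares of all genes given above. By list, the blocked counts of changed genes between DU145KO+α2 and DU145KO+vector were 1 of 4 other ligands, 5 of 8 genes for ligand release, 8 of 31 adaptors and effectors, 7 of 18 brakes and 4 of 14 transcripts induced through ERK. Between DU145KO+α2 and DU145KO they were 3, 3, 7, 4 and 3, and between DU145KO+vector and DU145KO they were 2, 2, 3, 3 and 2.

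The first list held the other ligands and the fourth receptor. NRG4, a neuregulin that binds ERBB4, was at 1.24, 2.0, 1.24 and 1.72 CPM in DU145KO+α2, at 3.88, 3.81, 5.70 and 5.10 CPM in DU145KO+vector and at 3.44, 2.87, 4.12 and 4.80 CPM in DU145KO. It was lower with α2 by −1.56 ± 0.22 (log2, SE, edgeR adjusted p = 0.000314) and −1.29 ± 0.23 (adjusted p = 0.00206), more than 2-fold in both comparisons. EGF, the ligand that names the family, was at 8.20, 9.25, 7.97 and 5.48 CPM in DU145KO+α2 and at 11.8, 13.6, 14.9 and 8.37 CPM in DU145KO. The samples overlapped, with a log2 difference of −0.65 ± 0.18 (edgeR adjusted p = 0.0384). By voom with limma, 1 of the 4 tested genes of this list changed in that comparison, against 2 by edgeR. Between DU145KO+α2 and DU145KO+vector, EGF differed by −0.19 (adjusted p = 0.595). When blocked by replicate number, EGF in DU145KO+vector was itself below DU145KO by −0.45 (adjusted p = 0.0201). NRG1, a ligand of ERBB3 and ERBB4, was at 0.138 to 1.66 CPM in the 12 samples, with log2 differences of 1.26 (adjusted p = 0.128) and 1.03 (adjusted p = 0.239) in DU145KO+α2. NRG2 differed by −0.62 (adjusted p = 0.0745) between DU145KO+α2 and DU145KO, and by −0.60 (adjusted p = 0.00717) with the block. With the block it was also below DU145KO in DU145KO+vector, by −0.50 (adjusted p = 0.0373). ERBB4 was at 0 to 0.293 CPM and NRG3 had no read in any sample, so neither was tested.

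Of the 8 tested genes for ligand release, 1 changed compared to DU145KO+vector, or 12.5% beside 11.9% of all genes. ADAM9, a membrane protease of the ADAM family, was at 735, 702, 642 and 627 CPM in DU145KO+α2, at 509, 506, 426 and 453 CPM in DU145KO+vector and at 583, 603, 513 and 502 CPM in DU145KO. All samples with α2 were above all without it. The log2 difference was 0.51 ± 0.09 (SE, edgeR adjusted p = 0.00135) from DU145KO+vector, and from DU145KO it was 0.30 with an adjusted p of 0.0503, or 0.000175 when blocked by replicate number. With the block, ADAM9 was also lower in DU145KO+vector than in DU145KO, by −0.22 (adjusted p = 0.00732). Among the 31 adaptors and effectors, SHC1 (0.55) and GAB1 (0.26) were higher and EPS8 (−0.24) was lower in log2 difference from DU145KO+vector. Compared to DU145KO, PLCG1 (0.39) was higher. With the block, SHC1 (0.28, adjusted p = 0.00234) and GAB1 (0.21, adjusted p = 0.0225) were also higher and EPS8 (−0.19, adjusted p = 0.0369) lower than in DU145KO, and PLCG1 (0.18, adjusted p = 0.0396) was higher than in DU145KO+vector. In DU145KO+vector, SHC1 (−0.28, adjusted p = 0.00557) was then below and PLCG1 (0.20, adjusted p = 0.0426) above DU145KO. SHC1 and GAB1 encode adaptors bound by active receptors, and PLCG1 a phospholipase.

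Set against DU145KO+vector, 3 of the 18 brakes on the receptors were higher in DU145KO+α2 and 0 were lower. These 3 made up 16.7% of the list, beside 11.9% of all genes changed and 5.96% higher. ERRFI1, which encodes an inhibitor that binds the EGFR kinase domain, was at 434, 395, 489 and 474 CPM, against 303, 307, 309 and 304 CPM in DU145KO+vector, and at 382, 413, 447 and 323 CPM in DU145KO. Its log2 difference from DU145KO+vector was 0.55 ± 0.10 (SE, edgeR adjusted p = 0.00131). LRIG1 (0.47), which lowers receptor levels at the membrane, and SOCS5 (0.28), a suppressor of cytokine signalling, were the others. Compared to DU145KO, 0 of the 18 passed by edgeR without the block or by voom with limma, and 1 passed by DESeq2. By edgeR without the block, 8.17% of all genes passed. An unadjusted edgeR p below 0.05 was found for 4 of the 18, while over all 14732 genes a p of 0.0471 (AKT1) ranked 3073. In that comparison ERRFI1 differed by 0.20 (adjusted p = 0.247), LRIG1 by 0.32 (adjusted p = 0.0922, blocked 0.00411) and SOCS5 by 0.22 (adjusted p = 0.0782, blocked 0.0191). ERRFI1 was lower in every sample of DU145KO+vector than in any of DU145KO, by −0.35 (adjusted p = 0.0636, blocked 0.00632). CBLC, a ubiquitin ligase of the CBL family, was lower in DU145KO+vector than in DU145KO by −0.63 ± 0.15 (adjusted p = 0.0327), and with the block it was higher in DU145KO+α2 when set against DU145KO+vector (0.40, adjusted p = 0.0214).

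Of 14 transcripts known to be induced through ERK, 2 changed compared to DU145KO+vector, or 14.3% beside 11.9% of all genes. Compared to DU145KO 1 changed, or 7.14% beside 8.17% of all genes. DUSP4 and DUSP6, the genes of phosphatases that act on MAP kinases, were higher in DU145KO+α2 than in DU145KO+vector. Only DUSP6 was also higher than in DU145KO. DUSP6 was at 40.4, 38.9, 41.7 and 42.5 CPM with α2, at 35.6, 26.6, 29.2 and 34.8 CPM in DU145KO+vector and at 27.1, 23.4, 23.5 and 30.3 CPM in DU145KO. Its log2 difference was 0.37 ± 0.10 (SE, edgeR adjusted p = 0.0269) from DU145KO+vector and 0.65 ± 0.10 (adjusted p = 0.000968) from DU145KO, with all samples with α2 above all others. DUSP4 was at 50.6, 34.6, 50 and 28 CPM in DU145KO+α2 and at 27.9, 18.2, 16.8 and 12.8 CPM in DU145KO+vector, a log2 difference of 1.10 ± 0.25 (adjusted p = 0.0151). It overlapped with DU145KO, at 25.9 to 38.8 CPM. Blocked by replicate number, DU145KO+vector was below DU145KO for DUSP4 (−0.84, adjusted p = 0.00483) and above it for DUSP6 (0.28, adjusted p = 0.0162). The other 12 transcripts of the list did not pass the test without the block in either comparison with α2. With it, IER3, an immediate early gene, was higher in both (0.44 and 0.25, adjusted p = 0.000162 and 0.0175), DUSP5 was lower than in DU145KO+vector (−0.42, adjusted p = 0.00487) and CCND1, the gene of cyclin D1, was lower than in DU145KO (−0.22, adjusted p = 0.00572). These 3 were named after their values were seen.

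The genes whose pattern was most like that of a changed gene were taken by Pearson's r of log2 CPM over the 12 samples, which share their lines and replicate numbers. For EREG these were PRKAG2 (r = 0.954), ITGA2 (0.953) and FOXN3 (0.944). For TGFA they were IFIT1 (0.949), SLC44A1 (0.944) and DBN1 (0.944), and for ERBB3 GIPC3 (0.977), CASP4 (0.974) and SERPINB5 (0.970).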

How the data were processed

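The authors sequenced stranded poly(A) libraries (TruSeq) as single reads on an Illumina HiSeq, made FASTQ files with bcl2fastq 1.8.4, aligned to hg38 with TopHat2 2.1.0 and counted uniquely aligned reads per gene with Subread 1.5.0. The deposited counts are whole reads per gene, not normalized. The deposited RPKM values were made by the authors from them with TMM scaling and gene length. Rows with no symbol held 0.0621% of counts and were kept, subject to the same filter on low counts. RPKM was used for levels between genes, and counts for every test.

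Samples were grouped by their titles. Counts of the 12 samples were fitted together in edgeR 4.0.16 (R 4.3.3; TMM, filterByExpr with a minimum count of 10, robust quasi-likelihood test), with Benjamini-Hochberg adjustment over all 14732 tested genes. CPM was computed with TMM factors. Exact permutation tests were two-sided. The fit was checked on simulated counts, and intervals cover 95%. Chi-square per degree of freedom between replicates was 6.98 to 23.7, so no samples were duplicates.

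Replicate numbers come from the titles. Deviations from the line means correlated at 0.148 to 0.603 in all 12 same-numbered pairs, against −0.317 to 0.184 in the 36 other pairs, and the numbers were taken to pair the samples. The fit with the number as a block is given beside named genes where it changes a call.

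The genes and the pathway lists were chosen with earlier results of these data known. Named were the 9 genes, ITGA2, all other ErbB ligands, up to 4 genes per list by smallest p, and the 3 genes most correlated with each changed gene. Some genes under this rule are not reported here. Epithelial markers were named beside ERBB3 after their values were seen. Positions are from GENCODE v44 and start site windows from RefSeq. Alternatives were other scalings, DESeq2 1.42.0, voom with limma 3.58.1, other filters, subsets of samples and a fold threshold of 2.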

Additional observations from a re-analysis of the deposited data

How the results depend on the processing

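The directions of all log2 differences of the 8 genes that were past the threshold held under every alternative, and EREG and TGFA stayed past it in both comparisons with α2 under each one except the added 2-fold threshold, as did ERBB3 between DU145KO+α2 and DU145KO. Between DU145KO+vector and DU145KO, the count of changed genes fell from 1 to 0 with DESeq2 size factors, with voom and limma, with at least 10 counts in every sample and with only these lines fitted, since ERBB3 then had adjusted p-values of 0.0521, 0.0544, 0.0524 and 0.0959. Leaving out 1 sample gave counts of 2 to 3, 3 to 4 and 0 to 1 in the 3 comparisons. With the replicate number as a block the counts were 5, 4 and 3, adding AREG, ERBB2, ERBB3 and HBEGF as given above, and it changed no other call of these genes. With a fold above 2 they were 0, 0 and 0.

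For the pathway lists, the block gave 25, 20 and 12 changed genes, a fold above 2 gave 2, 1 and 0, and leaving out 1 sample gave 6 to 12, 3 to 7 and 0 to 3. DESeq2 called 8 between DU145KO+α2 and DU145KO and 4 between DU145KO+vector and DU145KO, where fitting only these lines called 0. Over all genes, the block gave 3911, 3286 and 1980 calls, a fold above 2 gave 325, 309 and 123, and DESeq2 gave 587 between the α2 negative lines, where leaving out 1 sample gave 160 to 528.

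With GENCODE exon lengths in place of the authors' gene lengths, levels per kilobase became 82.4 for AREG, 24.0 for ERBB2, 25.0 for EREG, 8.97 for EGFR, 5.26 for ERBB3, 6.17 for TGFA, 3.07 for BTC and 2.14 for HBEGF, which turned the order of ERBB2 and EREG and of ERBB3 and TGFA. The annotated exon unions are longer by construction. Depth limited EPGN, ERBB4 and NRG3.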

Other observations

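Within 5 Mb of EGFR, 15 other tested genes had a median log2 difference of −0.09 between DU145KO+α2 and DU145KO+vector, with 0 higher and 1 lower. Within 5 Mb of TGFA, 80 had a median of −0.06 in the same comparison, with 2 higher and 4 lower. Over all genes, 5.96% were higher and 5.95% lower. Within 5 Mb of ERBB3, 132 genes had a median of −0.02 between DU145KO+α2 and DU145KO. Of these, 2 were higher and 9 lower, beside 3.09% and 5.08% of all genes. CD68, a macrophage marker that other cells also express, was at 47.8 to 81.7 CPM in the 12 samples, and COL1A1, the gene of a collagen chain, at 7.65 to 12.1 CPM.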
